A study of Mus musculus with 12 samples.

Results

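The normal course of maternal mRNA clearance was followed in wild-type (WT) mouse oocytes by comparing 2 libraries of oocytes at metaphase of the second meiotic division (MII) with 2 libraries of oocytes at the germinal vesicle (GV) stage. These 4 libraries, of 12 in the series, were taken by their labels. The oocytes came from 3-week-old C57BL/6 females primed with PMSG, a gonadotropin that drives follicle growth. They were stripped of cumulus cells, cultured in vitro, and collected either before release from milrinone, which holds the GV arrest, or after they had matured. They carried no transgene and no deletion. The 2 WT libraries collected at germinal vesicle breakdown (GVBD) and the GV and MII libraries of Alkbh5-/- (KO) oocytes are given only as values beside the WT comparison. The study describes the libraries of a group as biologically independent pools of oocytes, and its methods and a legend give different pool sizes.

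A fully grown oocyte holds a large store of maternal mRNA and is close to silent in transcription until after fertilisation, so most of its mRNA changes during maturation come from decay, storage, and lengthening or shortening of the poly(A) tail. Deadenylation by the CCR4-NOT complex, recruited in part by BTG4, starts the decay of many maternal mRNAs at meiotic resumption. A smaller set is activated instead, when the cytoplasmic polyadenylation element (CPE) near the end of the 3′UTR is bound by CPEB1 and the tail is extended. The libraries were primed on poly(A) tails, so fewer molecules and shorter tails cannot be told apart in these counts, nor can less RNA per oocyte and fewer oocytes in a pool.

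Total counts were between 28627380 and 40247810 per library, and 21938 to 23857 genes had at least 1 count. On a scale of TMM-normalised log2 counts the GV libraries correlated across genes with r = 0.952 and the MII libraries with r = 0.971. Of 14 oocyte markers, 13 had at least 100 counts in every library, and their summed level was 16700 to 21800 CPM, scaled by total endogenous counts. Among the WT GV and MII libraries, WT GV replicate 2 stood apart in RNA of blood cells. The 12 blood and immune markers summed to 5560 CPM there and to 19.9 to 52.8 CPM in the other 3 libraries, with Hba-a1, an alpha globin, at 55632 counts against 128 in WT GV replicate 1. Hba-a2, another alpha globin gene, was high in both WT GVBD libraries as well, at 35082.9 and 20418.2 spike-in scaled counts. Of 21 granulosa and cumulus markers, 4 were at or under 10 counts in every library, Amh and Amhr2 among them at 0 in all 4. Another 3 had at least 100 counts in every library. The markers summed to 158 and 195 CPM at GV and 373 and 391 CPM at MII, with Serpine2 the highest. The cell source of this signal was not tested.

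The amount of polyadenylated RNA fell from GV to MII when read against the ERCC spike-in, a mix of synthetic RNAs added in equal amount to every tube. WT GV replicates 1 and 2 held 104.9 and 98.9 endogenous counts per ERCC count, and WT MII replicates 1 and 2 held 73.3 and 47.0. Both MII libraries were below both GV libraries. The means were 101.9 ± 4.24 and 60.1 ± 18.57 (SD, n = 2 libraries each), a fall of 41.0%. The exact permutation test (two-sided) gave p = 0.333, the smallest value that 2 against 2 libraries allow. The MII libraries differed from each other by more than the GV libraries did, and every value on the spike-in scale carries that difference.

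Changes in amount and in share were therefore kept apart. On the spike-in scale, each library size followed its ERCC count, so that a value estimates the change in amount per tube. On the relative scale, TMM factors centred the endogenous genes, so that a value estimates the change in share of the RNA that remained. Genes were called when the adjusted p-value of the edgeR quasi-likelihood test was under 0.05 and the absolute log2 fold change was at least 1. Over 18816 tested genes the median log2 fold change was −1.06 on the spike-in scale, a median fold of 0.48, and −0.22 on the relative scale. A mean below that of GV was seen for 15503 genes (82.4%) on the spike-in scale.

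Clearance was broad and raised amounts were rare. On the spike-in scale 5747 genes fell, 30.5% of those tested, and 74 rose, 0.393%. Of the genes that fell, 4505 fell by at least 4-fold and 1360 by at least 16-fold. In these counts 317 tested genes were at 0 in both MII libraries, 302 of them cleared, and their fitted fold changes are not bounds. On the relative scale 3193 genes (17%) lost share and 1329 (7.06%) gained it. All 3193 genes that lost share also fell on the spike-in scale, and these are called cleared below. Another 2554 genes fell on the spike-in scale alone. Of these, 180 (7.05%, against 3.5% of all tested genes) had 2 libraries of some group of the series more than 10-fold apart. The higher library was at 100 or more scaled counts. For 102 of the 2554 the WT GV libraries were that far apart, against 194 of all tested genes. With median-of-ratios scaling 1871 genes gained and 2954 lost share, and with total endogenous counts as scaling 1015 gained and 3380 lost it. A gene was called kept when the 95% interval of its spike-in log2 fold change lay inside −1 to 1, and 303 genes (1.61%) met this. Without one of the libraries at a time, 2848, 2712, 5328 and 2843 genes fell on the spike-in scale (leaving out WT GV replicate 1, WT GV replicate 2, WT MII replicate 1 and WT MII replicate 2), and on the relative scale 1959, 2475, 1752 and 1821 genes lost share and 1904, 1110, 674 and 597 gained it. Most of the 74 genes that rose on the spike-in scale were then no longer called, whichever library was left out. The kept genes were abundant, with a median mean spike-in scaled count of 4060 against 139 for all tested genes, and their log2 fold changes lay between −0.19 and 0.26. Both traits follow from the rule, since only genes with a narrow interval and a value near 0 can meet it. Genes that gained share had a median spike-in log2 fold change of 0.40, and 7 of them were also kept. The remaining 11418 genes were neither called on either scale nor kept, so their change is not settled at this depth and replication.

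**Figure D1:**
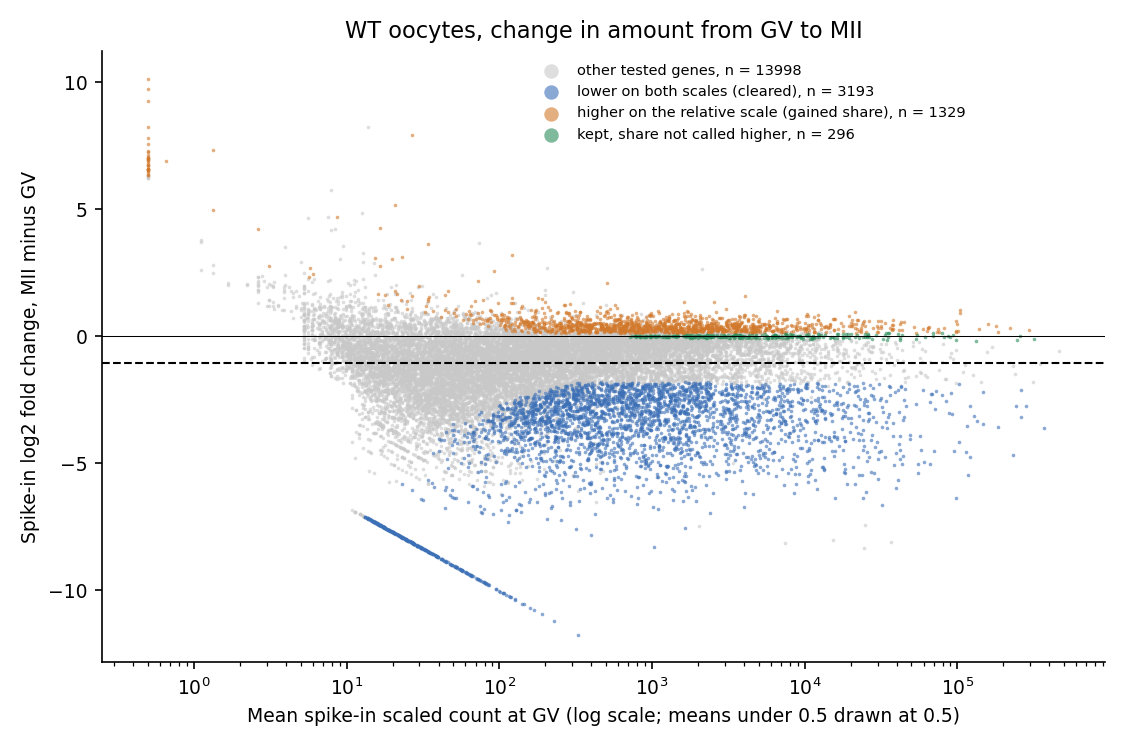
Spike-in log2 fold change, MII minus GV (vertical axis), against the mean spike-in scaled count at GV (horizontal axis, log scale) for the 18816 tested genes, coloured by class, with a dashed line at the median of all genes, −1.06. Cleared genes lie far below that line, kept genes lie between −0.19 and 0.26 at high levels, genes that gained share lie mostly between 0 and 1, and the low diagonal is genes at 0 counts in both MII libraries, whose fitted fold change depends on the prior count. The place of the kept genes follows from the rule that defines them.

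The cleared genes made up 34.8% and 33.7% of the endogenous counts of WT GV replicates 1 and 2 and 6.82% and 7.18% of those of WT MII replicates 1 and 2. The 1329 genes that gained share went from 16.7% and 16.1% to 36.9% and 36.8%, and the kept genes from 12% and 12.2% to 20.7% and 21.1%. These shares describe the calls and do not support them, since both come from the same counts. At GVBD the cleared genes still held 33.2% and 32.5% of counts. Their median level relative to GV was 0.08 and −0.50 on the log2 spike-in scale in WT GVBD replicates 1 and 2 and −3.00 and −3.64 in WT MII replicates 1 and 2. Of the 3193 cleared genes, 325 (10.2%) were at least 2-fold below their GV level in both GVBD libraries.

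**Figure D2:**
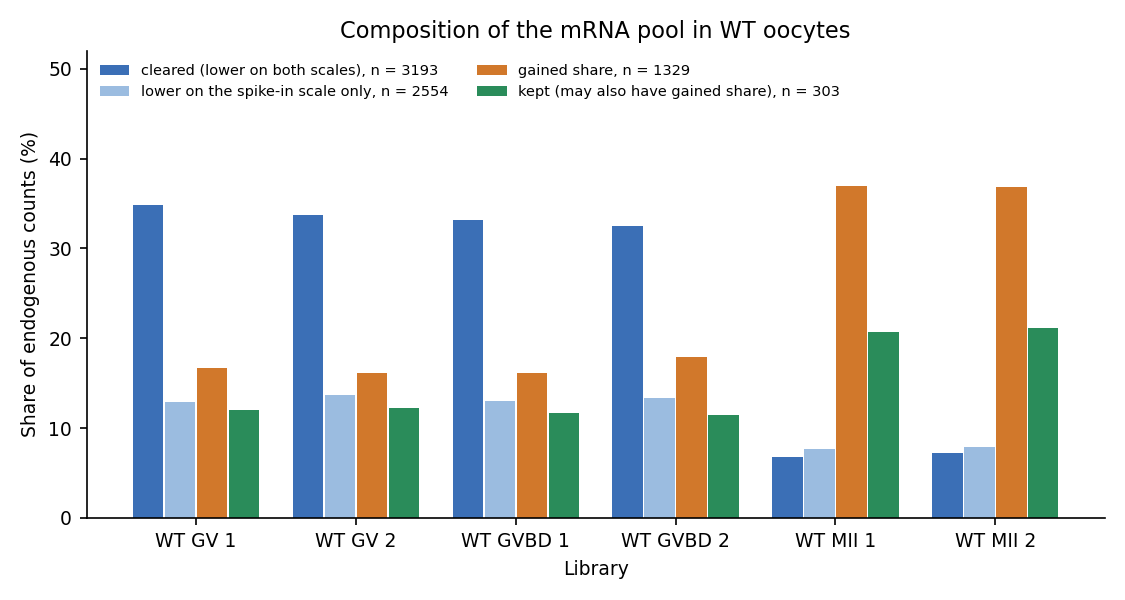
Share of endogenous counts (percent, bars starting at 0) held by 4 classes of genes in each of the 6 WT libraries. The cleared class holds 32.5 to 34.8% at GV and GVBD and 6.82 and 7.18% at MII, and the class that gained share holds 36.8 and 36.9% at MII.

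The most abundant mRNAs were exchanged in part. Ranked by spike-in scaled counts per kilobase of exon, 4 protein-coding genes were among the top 10 at both stages (Dppa3, Fbxw24, Ldhb and Obox2). These ranked genes were named after their values were seen. Dppa3, which protects the maternal genome from demethylation, was first at both stages, with 520416 per kilobase at GV and 350323 at MII. Its log2 fold change was −0.57 on the spike-in scale (95% interval −1.30 to 0.15), which was not called. Elobl, the third at GV, fell from 313514 to 73048 per kilobase (a call lost without WT GV replicate 1, at −2.09), and Ubb, a polyubiquitin gene, fell from 156272 to 17224 per kilobase. Oosp1 rose from 107044 to 217364 per kilobase and was second at MII. Omt2b and Omt2a, oocyte maturation genes, followed among the top 10 at MII, with 155110 and 151753 per kilobase. Reads were kept only if they mapped once, so levels of genes with close copies, Ubb and the Obox and Omt2 genes among them, are uncertain.

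Genes for cytosolic ribosomal proteins were the group that fell most nearly as a whole. Of 81 tested, 74 fell on the spike-in scale (91.4%, against 30.5% of all genes), 68 lost share (84%, against 17%) and none rose on either scale. Shares of all genes, here and below, are not matched for level. Calls were more frequent at higher GV level per kilobase, among genes with an annotated 3′UTR split into 5 bins. In the lowest bin 1.48% gained and 2.56% lost share, and in the highest 15.3% and 33.5%. Counts of members called also depend on the libraries. Without WT GV replicate 1 or WT GV replicate 2 the count that fell on the spike-in scale moved by more than 1.5 times in 44 of the 53 function lists each, and without WT MII replicate 1 or WT MII replicate 2 in 14 and 25. The count that gained share moved that much in 25, 18, 25 and 31 lists. For the cytosolic ribosomal proteins 56 to 75 fell with one library left out. Their median log2 fold change was −3.58 on the spike-in scale, against −1.06 for all genes, and −2.63 on the relative scale, against −0.22. Together they went from 2.44% of endogenous counts at GV to 0.598% at MII. Rps27a (ENSMUSG00000020460, chr11:29545846-29548109), which encodes a ubiquitin fused to a small-subunit protein, had 27760 and 20330 spike-in scaled counts at GV, 19410 and 15780 in the GVBD libraries, and 326.9 and 256.3 by MII. Both MII libraries were far below the GV and GVBD libraries, and the log2 fold change was −6.37 ± 0.57 (SE, edgeR adjusted p = 3.85e-25). Rpl39 (ENSMUSG00000079641, chrX:37082520-37085402), of the large subunit, had 44300 and 35340 scaled counts at GV and 1828 and 1480 at MII, a 24.1-fold fall. Rpl30 and Rps15 stood at −5.81 and −5.75 on the log2 spike-in scale. Ribosomal protein genes have many processed pseudogenes, so their absolute counts are uncertain. The median of the list was −0.04 and −0.86 in the 2 GVBD libraries relative to GV and −3.24 and −3.87 in the 2 MII libraries.

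Nuclear genes of the mitochondrion fell in the same comparison, while transcripts of the mitochondrial genome did not. Of 78 genes for mitochondrial ribosomal proteins, 58 fell on the spike-in scale (74.4%) and 51 lost share (65.4%), with medians of −2.65 and −1.79. Mrpl33 (ENSMUSG00000106918, chr5:31596935-31664384) had 17660 and 14160 spike-in scaled counts at GV and 202.7 and 184.4 at MII. Mrps18c fell by 5.95 on the log2 spike-in scale. Mrpl45 and Mrps5 went the other way on the relative scale, by 1.37 ± 0.17 and 1.15 ± 0.28 (SE, edgeR adjusted p = 0.00514 and 0.0332). Of 84 nuclear genes for subunits of the oxidative phosphorylation complexes, 62 fell and 50 lost share, with medians of −2.30 and −1.39, and 5 gained share. Atp5j2 (ENSMUSG00000038690, chr5:145183698-145192062), of the ATP synthase, had 123600 and 112000 scaled counts at GV, 83480 and 66480 in the GVBD libraries, and 2567 and 2842 by MII, which is 43.6-fold lower at MII than at GV. Atp5g1 and Ndufc1 stood at −5.83 and −5.61. Ndufa10, Cox8a and Cox6a1 gained share by 1.46, 1.40 and 1.38, so the members of the complexes changed unevenly. Without WT GV replicate 1 or WT GV replicate 2, the genes that fell on the spike-in scale numbered 36 and 38 for mitochondrial ribosomal proteins and 34 and 38 for oxidative phosphorylation. The call of Mrps5 was lost when any library but WT GV replicate 1 was left out (0.79 to 1.22).

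The 13 mRNAs encoded by the mitochondrial genome had a median of −0.03 on the spike-in scale and 0.83 on the relative scale. The medians of all genes were −1.06 and −0.22. None of the 13 fell on the spike-in scale or lost share, against 30.5% and 17% of all genes. Of the 13, 5 were kept, against 1.61% of all genes. Transcripts of this genome carry short tails added in the organelle. mt-Cytb was kept, with a spike-in log2 fold change of −0.02 (95% interval −0.84 to 0.79). mt-Nd4l gained share by 1.06 ± 0.17 (SE, edgeR adjusted p = 0.0107). mt-Atp6 was called higher on the spike-in scale, but it had 33208 counts in WT MII replicate 1 and 3849 in replicate 2, against 1605 and 1866 at GV, and 14531 against 2713 in the 2 KO GV libraries. Without WT MII replicate 1 its log2 fold change was −0.29, so the call rests on that library. The call of mt-Nd4l on the relative scale was lost without it too (0.89).

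Several other groups of basic metabolism and protein turnover had more members called lower than genes at large, of which 30.5% fell and 17% lost share. Their summed share of the pool did not drop as that of the ribosomal proteins did. Further lists were mixed. Of the USP deubiquitinases 27.1% fell and 12.5% lost share, and of heat shock proteins and chaperonins 40.7% and 11.1%. For ubiquitin E2 enzymes these were 34.4% and 21.9%, and for the tricarboxylic acid cycle 33.3% and 26.7%. Of 23 genes for antioxidant enzymes, 13 fell on the spike-in scale (56.5%) and 7 lost share (30.4%), with medians of −1.72 and −0.85, and the list held 0.456% of counts at GV and 0.457% at MII. Sod1, the cytosolic superoxide dismutase, had 9529 and 10520 spike-in scaled counts at GV and 858.7 and 517.5 at MII. Glrx5, a glutaredoxin of iron-sulfur cluster assembly, fell by 4.29 on the log2 spike-in scale. Of 22 genes of glycolysis and pyruvate use, 12 fell (54.5%), 7 lost share (31.8%) and none gained it, while the list as a sum went from 0.897% to 1.35% of counts. Most of that sum was Ldhb alone, the lactate dehydrogenase subunit that is abundant in oocytes. Ldhb was kept, with 320717 and 212479 counts at GV and 474091 and 524253 at MII, while Tpi1, triosephosphate isomerase, fell 9.74-fold. Of 38 proteasome subunit genes, 17 fell (44.7%), 15 lost share (39.5%) and 4 gained it (10.5%). Psmb7, a catalytic core subunit, had 26800 and 20700 scaled counts at GV, 26940 and 26740 in the GVBD libraries, and 680.7 and 414.0 by MII. Psmd11, Psmd1 and Psmd3, of the regulatory particle, gained share by 1.19, 1.08 and 1.07, and the call of Psmd3 was lost when any 1 of the 4 libraries was left out (0.95 to 1.33), that of Psmd1 without WT GV replicate 2 or WT MII replicate 1 (0.87 and 0.74) and that of Psmd11 without WT MII replicate 2 (1.0). Of 20 cholesterol synthesis genes, 8 fell (40%), 5 lost share (25%), Fdps among them at −1.96, and 4 gained it (20%), Idi1 among them at 1.43, and their summed share was 0.102% at GV and 0.104% at MII.

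**Figure D3:**
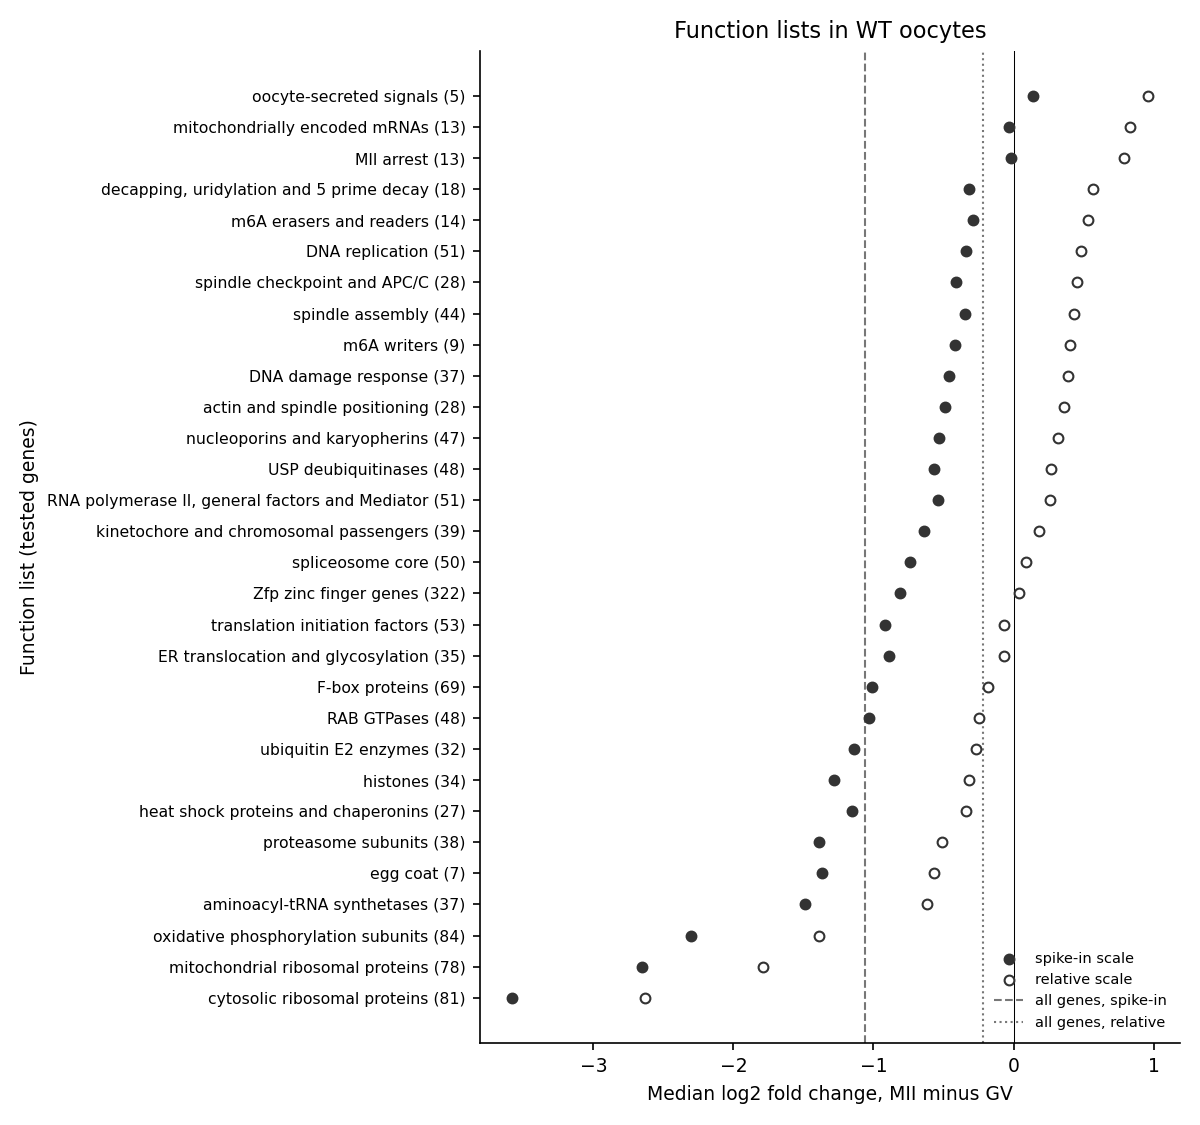
Median log2 fold change, MII minus GV, of 30 of the 53 function lists on the spike-in scale (filled points) and the relative scale (open points), with the number of tested genes of each list in brackets and dashed and dotted lines at the medians of all tested genes, −1.06 and −0.22. The lists are those with most tested genes and a few smaller ones described in the text. Ribosomal, mitochondrial ribosomal and oxidative phosphorylation lists lie at the low end, and the MII arrest and oocyte-secreted lists at the high end.

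Genes for the making of RNA and protein were not a uniform group. Of 53 translation initiation factor genes, 22 fell on the spike-in scale (41.5%, against 30.5% of all genes), 16 lost share (30.2%, against 17%) and 7 gained it (13.2%, against 7.06%). Eif4e2, a cap-binding repressor, fell by 3.95, and Eif6, which keeps ribosomal subunits apart, fell by 3.77. Eif4e3 and Eif2s2 gained share by 1.26 ± 0.15 and 1.25 ± 0.14 (SE, edgeR adjusted p = 0.00442 and 0.00428). Of 51 genes of RNA polymerase II, its general factors and Mediator, 15 fell (29.4%) and 7 lost share (13.7%), near or under the shares of all genes, and 13 gained it (25.5%). The lowest included subunits of the polymerase, with Polr2i at −5.36 and Polr2k at −5.02 on the log2 spike-in scale. Polr2k (ENSMUSG00000045996, chr15:36174010-36177010) had 59410 and 51620 scaled counts at GV, 69130 and 42230 in the GVBD libraries, and 1894 and 1523 by MII. Med20 gained share by 1.66 and Taf13 by 1.44. Among 50 spliceosome genes, 11 fell (22%), 8 lost share (16%) and 10 gained it (20%), from Snrpd2 at −3.20 to Snrpb2 at 1.39 on the relative scale.

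Transcription factors of oocyte growth fell about as often as genes at large, and some proteins of the egg surface fell as well. Of 17 tested oocyte transcription factors, 5 fell on the spike-in scale (29.4%, against 30.5% of all genes), 4 lost share and 2 gained it. Figla (ENSMUSG00000030001, chr6:86016171-86020996), the transcription factor that turns on the zona pellucida genes in growing oocytes, had 1396 and 1349 spike-in scaled counts at GV, 1307 and 985.8 in the GVBD libraries, and 47.87 and 27.57 by MII. Its log2 fold change was −5.19 ± 0.61 (SE, edgeR adjusted p = 1.76e-15), the lowest of that list. Esrrb fell by 3.92. Nobox had −0.91 (95% interval −1.81 to 0.00) and was not called. Zp2 and Zp3, proteins of the egg coat, fell 5.94-fold and 5.80-fold, from 63200 and 68980 scaled counts to 14930 and 7319 for Zp2 and from 36510 and 31700 to 7561 and 4192 for Zp3. Zp1 fell by 1.37 on the spike-in scale and did not lose share (−0.57, adjusted p = 0.0639). In the egg coat list of 7 genes, 4 fell and 1 rose on the spike-in scale, while 2 lost share and 2 gained it. Izumo1r, the egg receptor for the sperm protein IZUMO1, stood at −2.63 and Cd9, needed for fusion, at −2.68 on the spike-in scale. In the list of sperm binding, fusion and egg calcium, 4 of 13 tested genes fell (30.8%, against 30.5% of all genes), 3 lost share and 1 gained it. That list held 0.396% of counts at GV and 1.0% at MII. Of 7 genes of the subcortical maternal complex, Ooep, Padi6 and Khdc3 fell on the spike-in scale, at −1.78, −1.15 and −1.97, and none lost share. Khdc3 was named after its value was seen, and without WT GV replicate 1 it stood at −0.62. It was also lost without either MII library (−3.80 and −1.19). Without WT GV replicate 1 the calls of Ooep (−1.49), Cd9 (−2.65), Zp3 (−2.43) and Izumo1r (−2.05) were lost as well, the last also without WT MII replicate 2 (−2.31). The calls of Padi6 and Zp1 were lost when any library but WT MII replicate 1 was left out (−1.21 to −0.74 and −1.50 to −0.94). Of 19 genes of maternal mRNA storage, 5 fell on the spike-in scale (26.3%), 3 lost share and 3 gained it. On the low side, Zar1l had 46500 and 37510 scaled counts at GV and 1768 and 1198 at MII, and Ybx2, the germ cell Y-box protein, fell 8.04-fold. G3bp2 and Lsm14a, proteins of RNA granules, and Ybx1, a Y-box protein, gained share by 1.33, 1.05 and 1.18. Each of these 3 calls was lost without one MII library or the other, at 1.09 for G3bp2 without WT MII replicate 1, 0.96 for Lsm14a without WT MII replicate 2, and 1.15 and 1.21 for Ybx1 without either. Zar1 was at −1.03 on the spike-in scale (edgeR adjusted p = 0.0789) and was not called.

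The largest single falls were spread over genes of different kinds. Among genes at or above the median level whose groups did not overlap, Zfp966, a zinc finger gene, had 329 and 222 counts at GV and 0 in both MII libraries, at least 183-fold lower if 3 counts per MII library are taken as the floor. It had 319 and 148 counts in the 2 KO MII libraries. Dkk1 (ENSMUSG00000024868, chr19:30545863-30549665), a secreted inhibitor of WNT signalling, had 4352 and 3712 spike-in scaled counts at GV, 4058 and 3108 in the GVBD libraries, and 52.36 and 24.86 by MII. Fcf1 (ENSMUSG00000021243, chr12:84970897-84983303), which acts in ribosomal RNA processing, had 99390 and 96400 at GV, 142800 and 64500 in the GVBD libraries, and 1275 and 1073 by MII, an 83.4-fold fall. Iqcf1, Cyp2b13, Ebi3 and Tnnc2 stood at −7.55, −6.81, −6.70 and −6.99 on the log2 spike-in scale. Wfdc10 was already low at GVBD, with 27.67 and 0 scaled counts there against 247.0 and 391.5 at GV. Fgf8, an oocyte-secreted growth factor that acts on cumulus cells, had 142 and 119 counts at GV and 0 in both MII libraries, at least 87.6-fold lower with the same floor. Hba-a2 also passed the rule on the spike-in scale, with 114 and 36746 counts at GV and 73 and 207 at MII, and it was not called on the relative scale. Without WT GV replicate 2 its log2 fold change was −0.77. Of 11 tested blood and immune markers, 9 fell on the spike-in scale (81.8%, against 30.5% of all genes) and none lost share. The 12 listed markers summed to 31.2 CPM in WT GV replicate 1 and 5560 CPM in WT GV replicate 2, and to 19.9 and 52.8 CPM at MII. Among the WT GV and MII libraries, their sum was thus high in WT GV replicate 2 alone. In the rest of the series, Hba-a1 had 42818 and 36348 counts in the WT GVBD libraries. It had 33087 and 64768 counts at KO GV, 18 and 71 at KO GVBD, and 11485 and 11 at KO MII.

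**Figure D4:**
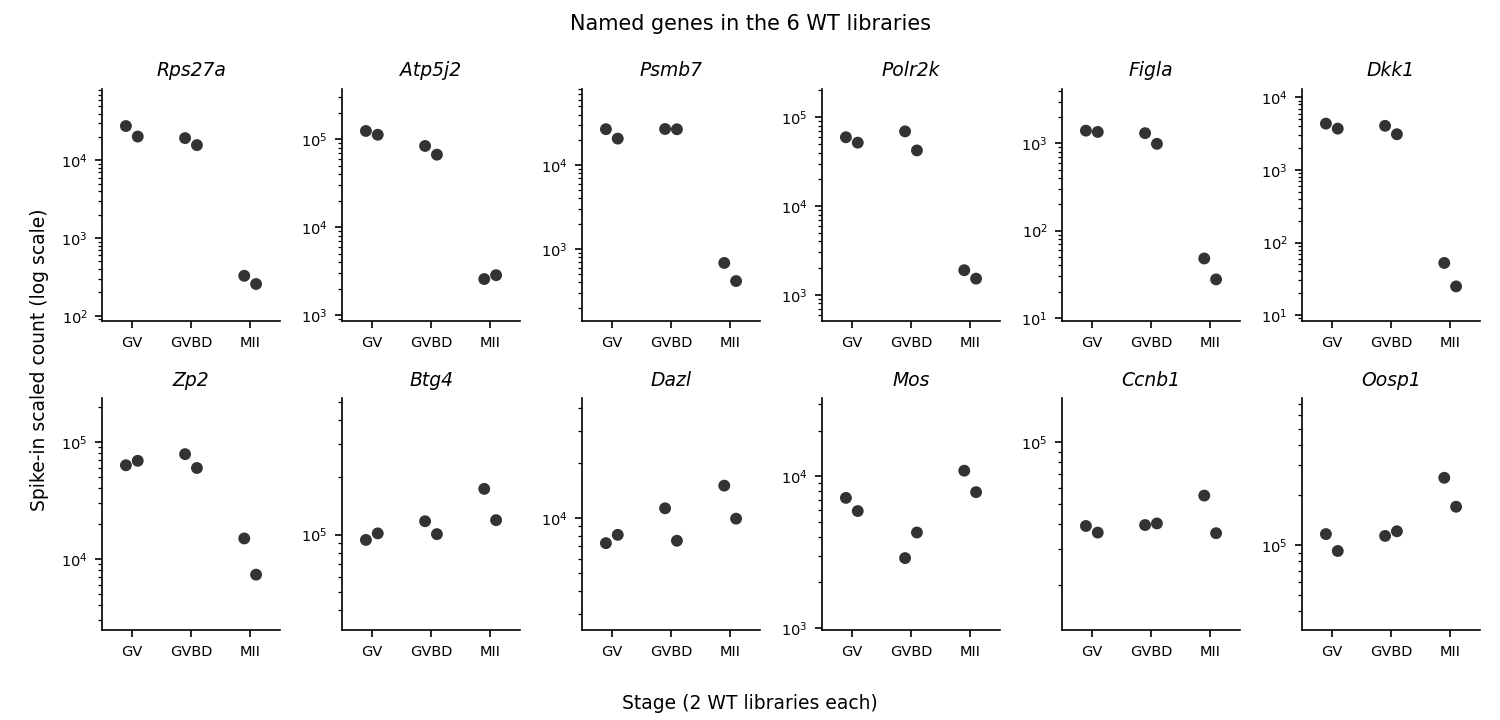
Spike-in scaled counts (log axis) of 12 genes in the 6 WT libraries, with 2 points for each stage. Rps27a, Atp5j2, Psmb7, Polr2k, Figla and Dkk1 are far lower at MII than at GVBD, Zp2 drops less, and Btg4, Dazl, Mos, Ccnb1 and Oosp1 at MII lie near or above their GV levels.

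Among mRNAs kept in amount were abundant genes of the oocyte itself. Ldhb had a spike-in log2 fold change of −0.11 (95% interval −0.84 to 0.63), Obox2, an oocyte homeobox gene, of 0.00 (−0.74 to 0.74), Obox1 of −0.19 (−0.97 to 0.59) and H1foo, the oocyte linker histone, of 0.00 (−0.80 to 0.80). Pttg1, the securin that holds separase inactive, was kept at 0.16 (−0.60 to 0.92). These 5 genes were taken as abundant kept genes after their values were seen. Gdf9 and Bmp15, growth factors that oocytes secrete to follicle cells, were kept, at 0.18 (−0.62 to 0.99) and 0.14 (−0.70 to 0.98). Gdf9 had 86080 and 61300 scaled counts at GV and 103700 and 63590 at MII, so its groups overlapped. It gained share by 1.02, a call that was lost when any library but WT GV replicate 1 was left out (0.78 to 1.04). The deadenylase subunits Cnot7 and Cnot6l and the kinase Wee2, which restrains CDK1 in oocytes, were kept as well. No member of the group of 9 other oocyte NLRP genes was called on the spike-in scale, where 30.5% of all genes fell and 0.393% rose. Of the 9, 3 were kept, against 1.61% of all genes, and their median was −0.12, against −1.06. None of 17 genes of DNA methylation and imprint protection fell, against the same 30.5%, and their median was −0.29. The count of kept genes turns on the spread between libraries: it was 0 without WT GV replicate 1 or without WT GV replicate 2, 1176 without WT MII replicate 1 and 1764 without WT MII replicate 2.

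Genes of the machinery that removes mRNA differed by step, and few had an interval narrow enough to be called kept. Btg4 (ENSMUSG00000032056, chr9:51060901-51119875), the adaptor of the CCR4-NOT deadenylase, had 93660 and 101400 spike-in scaled counts at GV, 117500 and 100500 in the GVBD libraries, and 174100 and 119100 by MII. The MII libraries lay above the GV libraries, but the spike-in log2 fold change of 0.59 ± 0.40 (SE, edgeR adjusted p = 0.288) was not called. On the relative scale it went from 2346 and 2557 TMM-scaled CPM to 6250 and 7126 CPM, a gain of 1.45 ± 0.13 (adjusted p = 0.0024). Of 19 genes of deadenylation, 5 fell on the spike-in scale (26.3%, against 30.5% of all genes), 2 were kept and 3 gained share (15.8%, against 7.06%), Btg4, Pan2 (1.78) and Cnot9 (1.25), while Cnot10 lost it (−1.69). Of 18 genes of decapping, uridylation and 5′ decay, 1 fell on the spike-in scale (5.56%), none was kept, none lost share and 5 gained it (27.8%). The one that fell was Patl2, named after its value was seen, and its call was lost without either GV library (−1.60 and −1.64). Dcp1a, a decapping activator, gained 1.43 ± 0.15 and Tut7, a uridylyltransferase that marks short-tailed mRNAs, 1.34 ± 0.18 (adjusted p = 0.00331 and 0.00595). Dcp2, the decapping enzyme, gained 1.01. Of 14 genes of the RNA exosome, 5 fell on the spike-in scale (35.7%) and 2 were kept, Exosc5 lost share (−2.02), and Exosc3 (1.55) and Mphosph6 (1.13) gained it. The list held 0.843% of counts at GV and 1.64% at MII, and its relative median was 0.02. Most of that sum was Mphosph6 alone, with 253575 and 229789 counts at GV and 538326 and 656191 at MII. The call of Exosc3 was lost without either MII library (1.72 and 1.37) and that of Mphosph6 without WT MII replicate 2 (0.97). The call of Exosc5 was lost when any library was left out (−2.54 to −1.60), that of Cnot10 when any but WT GV replicate 2 was (−1.71 to −1.08), and that of Dcp2 when any but WT GV replicate 1 was (0.89 to 1.09). Without WT MII replicate 1 or WT MII replicate 2, 3 genes of decapping, uridylation and 5′ decay gained share. With total endogenous counts as scaling in place of TMM, 2 genes of this list did.

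Regulators of the meiotic divisions were called in both directions. The lists of MII arrest, the CDK1 switch and the checkpoint gained share in more members than genes at large, without matching for level. Of 13 genes of MII arrest, 1 fell on the spike-in scale, none lost share and 5 gained it (38.5%, against 7.06% of all genes), with a relative median of 0.79. Without WT MII replicate 2, 3 of them gained share, and with total endogenous counts as scaling 4 did. Without WT MII replicate 1, 3 of them fell on the spike-in scale and the spike-in median was −0.53, against −0.02 with all libraries. Mos (ENSMUSG00000078365, chr4:3870657-3872105), a kinase needed for the arrest, had 7223 and 5914 spike-in scaled counts at GV, 2894 and 4269 in the GVBD libraries, and 10920 and 7880 by MII. Its GVBD libraries were the lowest and its MII libraries the highest. It gained share by 1.39 ± 0.17 (SE, edgeR adjusted p = 0.00503). Fbxo43 (EMI2), the inhibitor of the anaphase-promoting complex (APC/C), gained 1.14. Of 23 genes of the CDK1, cyclin B and CDC25 switch, 8 gained share (34.8%) and 4 lost it (17.4%, against 17% of all genes). Ccnb1, cyclin B1, had 38910 and 36110 scaled counts at GV and 54840 and 35860 at MII, overlapping groups, and gained share by 1.13 ± 0.12. Cdc25a gained 1.48 and Cks2 1.35. On the low side, Arpp19, an inhibitor of the phosphatase PP2A, had 21250 and 18060 scaled counts at GV and 1530 and 1323 at MII, and Ppp2ca, a catalytic subunit of PP2A, lost share, at −1.93. Of 28 genes of the spindle checkpoint and the APC/C, 7 gained share (25%), Mad2l1bp (1.75) and Cdc26 (1.45) among them, and 2 lost it (7.14%), Anapc15 (−2.28) and Anapc2 (−1.68). Cdc20, the APC/C activator, gained 1.05. Among 39 genes of the kinetochore and the chromosomal passengers, 11 fell on the spike-in scale (28.2%), 8 lost share (20.5%) and 5 gained it (12.8%). Aurkc, the germ cell Aurora kinase, gained 1.37, while Zwint (−2.50), Spc25 (−2.23) and Cenpm (−2.25) lost share. Birc5, survivin, fell by 1.70 on the spike-in scale and did not lose at least 2-fold of its share (−0.81), and its spike-in call was lost without either GV library (−1.56 and −1.83). On the relative scale the calls of Cdc20 without WT GV replicate 2 or WT MII replicate 2 (1.0 and 0.94), of Cdc25a without WT MII replicate 1 (1.38) and of Fbxo43 without WT MII replicate 2 (1.08) were lost.

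Among the other genes named, several gained share. Oosp1, an oocyte-secreted protein, was the only one of 52 genes listed for description that rose on the spike-in scale, from 116200 and 91930 to 253000 and 169500 scaled counts (log2 fold change 1.02 ± 0.40, SE, edgeR adjusted p = 0.0345), and it gained share by 1.88. Its spike-in call was lost when any library but WT MII replicate 2 was left out (0.70 to 1.20), while its gain of share was called each time. Dazl (ENSMUSG00000010592, chr17:50279395-50293636), which binds mRNAs and promotes their translation in maturing oocytes, had 7281 and 8085 scaled counts at GV, 11290 and 7504 in the GVBD libraries, and 15020 and 9908 by MII, and gained share by 1.55 ± 0.14 (adjusted p = 0.00223). Slbp, the stem-loop binding protein of histone mRNAs, gained 1.67, Orc6 of the replication origin complex 1.70, and Plat, tissue plasminogen activator, 1.34. Of 51 DNA replication genes, 9 gained share (17.6%, against 7.06% of all genes), Orc6, Pola2 (1.48) and Mcm2 (1.36) among them, and 9 lost it (17.6%, against 17%), Mcm5 (−3.48), Gins1 (−3.42) and Rpa2 (−3.35) among them. Rgs2, a regulator of G protein signalling that limits calcium release in the egg, gained 1.77, and its spike-in log2 fold change of 0.93 was not called (adjusted p = 0.0587). Hsp90aa1 gained 1.18, Bcl2l10, an oocyte member of the BCL2 family, 1.49, and H3f3a, a gene for histone H3.3, 1.56. Dnmt1, the maintenance DNA methyltransferase, gained 1.06 and Tet3, which oxidises methylated DNA in the zygote, 1.16. Obox5 and Obox7 gained 1.22 and 1.17. The calls of Dnmt1 without WT GV replicate 2 or WT MII replicate 1 (0.87 and 0.88), of Pola2 without either MII library (1.43 and 1.53), of Mcm2 without WT MII replicate 1 (1.19) and of Obox7 without WT MII replicate 2 (1.0) were lost.

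Genes of N6-methyladenosine (m6A), the mRNA mark that the study is about, were not called lower. None of 9 writer genes and none of 14 eraser and reader genes fell on the spike-in scale, against 30.5% of all genes. Their medians were −0.42 and −0.29, against −1.06 for all genes. Virma, a scaffold of the writer complex, gained share by 1.37 ± 0.17, and Igf2bp2, a reader, by 1.12 ± 0.13 (SE, edgeR adjusted p = 0.00527 and 0.004). Alkbh5, the demethylase deleted in the KO animals, had 5959 and 7976 spike-in scaled counts at GV, 12800 and 4513 in the GVBD libraries, and 5240 and 2832 by MII, and was at −0.79 (95% interval −1.71 to 0.14) on the spike-in scale and 0.03 on the relative scale. Ythdf2, a reader linked to decay, was at −0.96 (−1.92 to −0.01), with an adjusted p of 0.124 in the same test.

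The 74 genes that rose on the spike-in scale were uneven between libraries. In 32 of them (43.2%), at least 1 of the 6 groups of the series held 2 libraries more than 10-fold apart with the higher at 100 or more scaled counts, against 3.5% of all tested genes and 1.88% of the genes that gained share. In 19 of them the 2 WT MII libraries were that far apart. Of the 74, 23 had at most 3 counts in both GV libraries. Fut10, a fucosyltransferase gene, had 17 and 26 counts at GV, 6496 and 5152 in the GVBD libraries, and 11012 and 10132 by MII, and it was at 6 to 48 counts in all 6 KO libraries. Its spike-in log2 fold change was 7.92 ± 0.66 (SE, edgeR adjusted p = 8.95e-30). Idua, a lysosomal iduronidase, was high or low within groups, with 2 and 1164 counts in the GVBD libraries and 2 and 976 in the KO GV libraries, against 24 and 11 at GV and 1168 and 1370 at MII. Ptges3 had 2758 counts in WT MII replicate 1 and 424 in replicate 2, against 87 and 111 at GV. Rest, a repressor of neuronal genes, was more even, with 1661 and 1558 scaled counts at GV and 5085 and 3166 at MII (1.36 ± 0.48, adjusted p = 0.0194), although its call was lost when any library but WT MII replicate 2 was left out (0.98 to 1.40). Without WT MII replicate 1 the value of Ptges3 was 0.65 in place of 3.21. Zfp7, Fam241b and Oasl1 rose by 2.56, 2.10 and 1.48, and all 3 calls were lost without either GV library (2.26 to 2.97, 2.07 to 2.13, and 1.47 to 1.48), that of Oasl1 also without WT MII replicate 1 (1.11). Overlapping genes were not separated here, and whether strand was used in counting is not given in the sources used here.

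The 3′ ends differed between the classes. A CPE, spelled TTTTAT or TTTTAAT on the mRNA strand within the last 100 bases of the 3′UTR, was present in 34.4% of 1160 genes that gained share, in 31.6% of 269 kept genes and in 10.5% of 2135 cleared genes, against 18.9% of all 13824 genes with an annotated 3′UTR (GENCODE M21, 1 transcript a gene). All motifs were searched on the mRNA strand only. In each of 5 bins of GV level per kilobase the share was higher among genes that gained share (24.4 to 38.5%) than among those that lost it (9.4 to 11.3%), and kept genes were not divided in this way. Cleared genes had short 3′UTRs, with a median of 454 bases against 1066 for genes that gained share, 1260 for kept genes and 964 for all. TATTTAT, an AU-rich element, was in 14.7% of cleared, 32.1% of gaining, 40.1% of kept and 27.5% of all 3′UTRs, and TGTANATA, the Pumilio motif, in 13.6%, 29.7%, 33.8% and 24.8%. TATTTAT can share bases with the CPE. Longer 3′UTRs hold more motifs by length alone, whereas the CPE was searched in a window of fixed length except where the whole 3′UTR was shorter than 100 bases.

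**Figure D5:**
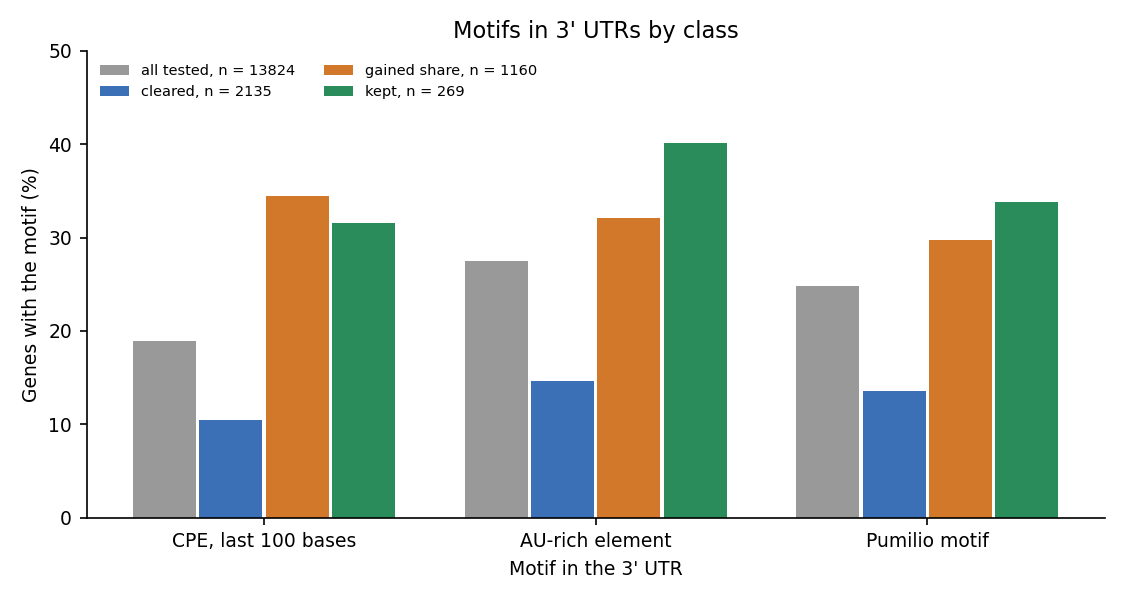
Share of genes (percent, bars starting at 0) with the CPE in the last 100 bases of the 3′UTR and with the AU-rich and Pumilio motifs anywhere in it, for all tested genes with a 3′UTR and for 3 classes. The CPE share is 34.4% among genes that gained share and 10.5% among cleared genes.

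Windows of 30 bases from 3′ ends are shown for 6 named genes that gained share and hold a CPE close to the poly(A) hexamer, picked for holding both, and for 4 cleared genes of high GV level that lack a CPE there. Capitals mark the CPE and the hexamer (AATAAA or ATTAAA), and each window is read 5′ to 3′ from the GENCODE M21 transcript (GRCm38).
Genes that gained share:
Gdf9: gtggTTTTATgtgacggaagAATAAActgt
Bcl2l10: tTTTTAATaacttcaaattcttAATAAAtg
Cks2: gTTTTATtttacctgttttgttaAATAAAg
Obox7: TTTTATtgttagagaatatgttcATTAAAt
Aurkc: ctcTTTTATgaagtgatgttaATTAAAact
Hsp90ab1: ttgTTTTATtttgttctaaaATTAAAagta
Cleared genes:
Dkk1: atggctttATTAAAaaaaaaaatccccgaa
Fcf1: gtcagttaATTAAAcacattttctgatttt
Rps27a: gtatgcgttAATAAAaagaaggaactcgta
Mrpl33: taggccttAATAAAaaaatatcaaaatagt
The windows lie at chr11:53437862-53437891 (Gdf9), chr9:75351590-75351619 (Bcl2l10), chr13:51650609-51650638 (Cks2), chr7:14665943-14665972 (Obox7) and chr7:7003045-7003074 (Aurkc) on the plus strand and at chr17:45567804-45567833 (Hsp90ab1) on the minus strand. Those of the cleared genes lie at chr19:30545868-30545897 (Dkk1) and chr11:29545846-29545875 (Rps27a) on the minus strand and at chr12:84983266-84983295 (Fcf1) and chr5:31622610-31622639 (Mrpl33) on the plus strand. All are in the 3′UTR. The full 3′UTRs of Rps27a and Fcf1 have 34 and 86 bases, so a CPE search covered all of them. Hsp90ab1 gained share by 1.16.

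Beside the KO oocytes, the WT medians of some lists were lower and those of others higher. The relative median of the cytosolic ribosomal list was −2.63 in WT and −1.28 in KO from GV to MII, that of the mitochondrial ribosomal list −1.79 and −1.21, and that of the oxidative phosphorylation list −1.39 and −0.41, with medians over all genes of −0.22 and −0.14. In other lists the KO median was the lower one, at −0.59 in WT and −0.83 in KO for glycolysis and pyruvate use, −0.51 and −0.80 for the proteasome, −0.07 and −0.43 for initiation factors and −0.09 and −1.23 for the tricarboxylic acid cycle. The egg coat list stood at −0.57 in WT and 1.14 in KO, with Zp2 at −1.77 and 0.56. Lists that gained share were alike in sign, with MII arrest at 0.79 and 1.12 and decapping, uridylation and 5′ decay at 0.57 and 0.64. The differences between genotypes were not tested here.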

How the data were processed

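The libraries were polyadenylated RNA-seq of pooled oocytes with ERCC spike-in RNA. The submitters' processing notes name cutadapt 1.9, HISAT2 2.0.4, StringTie 1.3.4d and the mouse genome build mm10, while the reporting summary of the study gives other versions of cutadapt and HISAT2, so the versions used are uncertain. Per its methods, the authors trimmed reads and kept those that mapped once. The deposited values are whole-number counts per gene and were made by the authors. The annotation release, and whether counting used strand, are not given in the sources used here. The labels and the methods describe RNA extraction and library preparation differently, and neither description was tested.

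The counts of 56691 genes and 92 ERCC sequences were read as deposited. Symbols and positions came from GENCODE M21 (GRCm38) by Ensembl identifier, and 52073 genes (91.9%) matched. Genes with low counts were removed with filterByExpr of edgeR 4.0.16 (R 4.3.3), which left 18816. The 2 WT MII libraries were compared with the 2 WT GV libraries by the edgeR quasi-likelihood test with Benjamini-Hochberg adjustment, once with library sizes proportional to ERCC counts (spike-in scale) and once with TMM factors (relative scale). A gene was called at an adjusted p under 0.05 and an absolute log2 fold change of at least 1. Spike-in scaled counts are counts divided by the ERCC count of the library relative to the mean. Intervals are 95% intervals of the fit. On the spike-in scale, intervals and p-values rest mostly on a spread shared over genes, and a gene's own spread between libraries enters little. Hba-a2, with 114 and 36746 counts at GV, had a standard error of 0.63 there. On the relative scale, where the spread of each gene enters more, it was 2.6. The test was tried first on simulated data with known changes. Motifs were searched in 1 transcript per gene.

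The members and the function lists were chosen with earlier results of these data known. Named genes were the 52 genes listed for description, up to 10 genes at either end of each scale among called genes of at least median level whose groups did not overlap and that carry a standard symbol, and up to 3 called members at either end of each function list. Other genes are said to be named after their values were seen. Alternatives were other scalings, filters, sample sets, a replicate block, DESeq2 1.42.0 and leaving out each library. No fold change or p-value of the authors was used.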

Additional observations from a re-analysis of the deposited data

How the results depend on the processing

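The fall in endogenous counts per ERCC count (0.59 of the GV level) stayed between 0.46 and 0.72 in all 7 alternatives. On the spike-in scale (5821 called, 5747 lower and 74 higher), total calls were 3839 with all 12 libraries in one model (3826 lower, 13 higher), and the lower and higher calls were 3193 and 1329 with TMM scaling and 2954 and 1871 with median-of-ratios scaling. The higher calls were 114 with no filter on low counts, 37 with at least 10 counts in every library, 44 with the 6 WT libraries in one model, 40 with the replicate block and 38 with DESeq2. Leaving out one library gave 2853 to 5347 calls, 2712 to 5328 lower and 19 to 141 higher. On the relative scale (4522 called, 3193 lower and 1329 higher) the higher calls were 2472 with no fold minimum, and leaving out one library gave 2418 to 3863 calls, 1752 to 2475 lower and 597 to 1904 higher. The kept genes (303) numbered 125 with all 12 libraries, 95 with the 6 WT libraries, 1321 with a 90% interval, and 0 to 1764 without one library. The cause was not tested. No called gene was called in the opposite direction in an alternative on the relative scale, while on the spike-in scale 2 were without WT GV replicate 1 and 2 without WT GV replicate 2.

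Libraries with the same number did not deviate together (r = 0.02 across 12993 genes), so the numbers were not taken as pairs. The replicate block gave 4933 lower and 40 higher genes on the spike-in scale and 2619 and 1225 on the relative scale.

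Of the named genes, 68 were called on the spike-in scale and 44 stayed called without any one library. On the relative scale these were 115 and 91. The value of mt-Atp6 was −0.29 without WT MII replicate 1 and reached 3.55 without WT MII replicate 2, the only change of sign among called values of named genes. With 1 library left in a group, its spread is assumed to be that of the other group.

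Groups of 2 libraries and the gap between the MII libraries in spike-in share limit what can be called: the median standard error was 0.65 (log2) on the spike-in scale and 0.42 on the relative scale. Poly(A) priming does not separate decay from loss of the tail. Depth limits little for abundant genes, and counting error is only part of the spread between libraries.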
